A study of Mus musculus with 10 samples.

Results

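The genes described here encode the mouse MHC class II molecules and the proteins that load and switch them on: Cd74, H2-Aa, H2-Ab1, H2-Eb1, H2-DMa, H2-DMb1 and Ciita. They are 7 of the 15883 genes in the count table, and all 7 passed the filter on low counts. The adjusted p-values in the authors' deposited table correspond to more genes than these rows, so counts of genes and library totals cover the rows used here and may not cover the whole table. They were chosen by gene name and selected on their counts in these 10 libraries, with the difference between the groups known, so the members' differences between groups are a description and carry no test. The RNA came from a muscle of the hind leg, the biceps femoris, in C57BL/6J males that were 5 weeks old and had gone 16 hours without food. The control group was 5 wild-type mice, and the other 5 mice carried a transgene of Zfp407, a zinc finger protein. The promoter that drives the transgene, the number of founder lines and the mouse behind each library are not stated in the labels, so libraries are called by group and number.

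MHC class II molecules are heterodimers of an alpha and a beta chain that carry peptides from the endosome to the cell surface, where CD4+ T cells read them. Dendritic cells, B cells and macrophages make them constitutively or on activation, and muscle fibres are not known as a main source. Cd74, the invariant chain, fills the groove of the new dimer, and H2-DM, a dimer of H2-DMa and H2-DMb chains, exchanges the last fragment of Cd74 for peptide. Ciita, the class II transactivator, does not bind DNA itself but is recruited to a promoter module whose X box is bound by the RFX complex and CREB and whose Y box is bound by NF-Y.

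Both patterns searched for, one for the X box and one for the Y box, were found in the promoters of 4 of 8 class II genes, 3 of which gave the letters of the X box pattern. RefSeq promoter sequences on GRCm38.p6 were matched by symbol for H2-Aa, H2-Eb1, H2-DMa and H2-DMb1, and not for Cd74, H2-Ab1 and Ciita. Below are the 150 bases just before the start of 3 members and of H2-Ob, the beta chain of H2-O, an inhibitor of H2-DM. Each is written 5′ to 3′ on the gene's own strand, and capitals mark matches to TGATTGG, a Y box pattern, and to AGNAACNNATG, an X box pattern, searched on both strands. The first was chosen with these sequences in view, and the second is made of the letters that H2-Eb1, H2-DMb1 and H2-Ob share, so their matches are by construction.
H2-Aa, chr17:34287824-34287973, minus strand: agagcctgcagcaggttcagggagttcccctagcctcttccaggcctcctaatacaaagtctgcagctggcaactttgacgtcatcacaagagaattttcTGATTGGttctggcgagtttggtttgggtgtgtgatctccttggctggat
H2-Eb1, chr17:34305717-34305866, plus strand: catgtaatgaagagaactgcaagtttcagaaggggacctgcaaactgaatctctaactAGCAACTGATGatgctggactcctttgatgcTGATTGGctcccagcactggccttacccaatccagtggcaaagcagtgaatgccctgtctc
H2-DMb1, chr17:34153041-34153190, plus strand: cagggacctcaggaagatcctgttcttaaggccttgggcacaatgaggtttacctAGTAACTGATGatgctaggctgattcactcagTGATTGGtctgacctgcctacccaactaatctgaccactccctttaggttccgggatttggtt
H2-Ob, chr17:34238755-34238904, plus strand: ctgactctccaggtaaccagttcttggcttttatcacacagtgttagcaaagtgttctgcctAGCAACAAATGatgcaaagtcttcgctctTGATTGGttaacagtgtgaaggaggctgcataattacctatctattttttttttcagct
In H2-Eb1 the X box pattern begins 92 bases before the start and lies 20 bases from the Y box pattern. The spacing is 21 bases in H2-DMb1 and 18 bases in H2-Ob; these 3 genes gave the letters of the X box pattern. Of the 3 class II genes with a matched promoter that are not members and gave no letters, H2-Eb2 holds both patterns, 20 bases apart, while H2-Oa and H2-DMb2 hold the Y box pattern and no match to the X box pattern. H2-Aa holds the Y box pattern, 50 bases before its start, and no match to these letters of the X box pattern. Neither of the 2 listed starts of H2-DMa holds a match to either pattern. Of 32851 RefSeq promoters that run from 250 bases before to 50 bases after a start, 7.82% hold TGATTGG, 0.895% hold AGNAACNNATG and 0.0731% hold both. The Y box core CCAAT, which lies within TGATTGG on the opposite strand, is in 37.4% of them. A match is a run of letters and not evidence of binding.

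The 5 wild-type libraries held 13530367 to 17814900 counts each and the 5 transgenic libraries 15162400 to 19047834, of which 9.62% to 33.9% fell on the rows Lars2, Gm15564 and Gm15662. Zfp407 itself stood at 21 to 25.7 CPM in wild-type muscle and at 317 to 616 CPM in the transgenic libraries. Levels are CPM on TMM-adjusted library totals. Summed markers of fast muscle fibres were present at 82043 to 120787 CPM in every library. Before the members are read, 2 sets of libraries stand apart. Transgenic libraries 1 and 2 held all 11 B cell markers of a fixed list above the highest wild-type library, while transgenic libraries 3, 4 and 5 held 0, 0 and 1. The share of all genes tested above it in each library is not given here. Transgenic libraries 4 and 5 held the highest summed hepatocyte markers, 1542 and 6275 CPM against 169 to 286 CPM in wild-type muscle, and the other transgenic libraries held 537 to 998 CPM.

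The invariant chain was the most abundant member, also per length. Cd74 stood at 39.0, 46.1, 36.1, 29.8 and 30.5 CPM in wild-type libraries 1 to 5 and at 85.3, 90.7, 67.3, 42.9 and 50.2 CPM in transgenic libraries 1 to 5. Of the transgenic libraries, 4 lay above the highest wild-type library and library 4 lay inside the wild-type range. The mean was 36.3 ± 6.68 CPM in wild-type muscle and 67.3 ± 21 CPM in transgenic muscle (SD, n = 5 each), a log2 fold change of 0.89 ± 0.21 (SE). Without transgenic libraries 1 and 2 the log2 fold change was 0.55 ± 0.18 (SE). In whole muscle, more cells that express these genes and more RNA per such cell cannot be told apart.

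The classical alpha and beta chains had the same order of libraries as Cd74 among the transgenic libraries. H2-Aa, the alpha chain of H2-A, had 23.3, 25.8, 19.1, 19.7 and 16.6 CPM in wild-type libraries 1 to 5 and 54.4, 55.6, 36.2, 23.9 and 29.3 CPM in transgenic libraries 1 to 5. H2-Ab1, its beta chain, had 15.5, 19.2, 12.4, 12.5 and 12.0 CPM in wild-type muscle and 28.4, 32.5, 27.7, 19.1 and 20.4 CPM in transgenic muscle. For both chains transgenic library 2 was highest, and transgenic library 4 was lowest of its group and below the highest wild-type library. H2-Eb1 encodes the beta chain of H2-E, whose alpha chain gene is a pseudogene in C57BL/6 mice. It had 13.5, 15.4, 10.9, 9.89 and 9.31 CPM in wild-type muscle and 28.4, 29.4, 24.9, 15.7 and 18.0 CPM in transgenic muscle. H2-Eb1 was the only member whose groups did not overlap on this scale, by a margin of 15.7 against 15.4 CPM; 5.14% of the genes tested had every transgenic library above every wild-type library. The log2 fold change was 0.93 ± 0.23 for H2-Aa, 0.84 ± 0.18 for H2-Ab1 and 0.98 ± 0.20 for H2-Eb1 (SE).

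The chains of the peptide exchange dimer were less abundant, also per length. H2-DMa had 1.02, 1.36, 2.16, 1.37 and 1.30 CPM in wild-type muscle and 3.39, 3.54, 3.04, 2.08 and 2.44 CPM in transgenic muscle. Transgenic library 4 again fell inside the wild-type range, through wild-type library 3. The log2 fold change of H2-DMa was 0.99 ± 0.24 (SE). H2-DMb1 had 1.18, 1.69, 0.722, 0.586 and 1.37 CPM in wild-type muscle and 2.11, 1.82, 1.46, 1.42 and 1.09 CPM in transgenic muscle. Only transgenic libraries 1 and 2 exceeded the highest wild-type library, and the log2 fold change was 0.54 ± 0.30 (SE). These levels rest on 13 to 76 counts per library for H2-DMa and 9 to 39 for H2-DMb1, against 423 to 1948 for Cd74. H2-DMb1 has a close copy, H2-DMb2, and reads shared between copies may be split in an unknown way. H2-DMa overlaps Brd2 on the opposite strand, and strand handling in counting is not stated.

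The transactivator stood above every wild-type library in 2 transgenic libraries, as H2-DMb1 did, against 4 for Cd74, H2-Aa, H2-Ab1 and H2-DMa and 5 for H2-Eb1. Ciita had 1.5, 1.36, 1.66, 2.02 and 1.01 CPM in wild-type muscle and 5.67, 5.82, 1.65, 1.56 and 1.93 CPM in transgenic muscle. The high values were those of transgenic libraries 1 and 2, and transgenic libraries 3, 4 and 5 lay within the wild-type range. In transgenic library 3, where Cd74, H2-Aa, H2-Ab1, H2-Eb1 and H2-DMa all exceeded every wild-type library, Ciita was at 1.65 CPM. The log2 fold change of Ciita was 1.14 ± 0.41 (SE) with all libraries and 0.16 ± 0.27 without transgenic libraries 1 and 2. Ciita overlaps Dexi on the opposite strand, and counts ran from 14 to 125 per library.

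**Figure D1:**
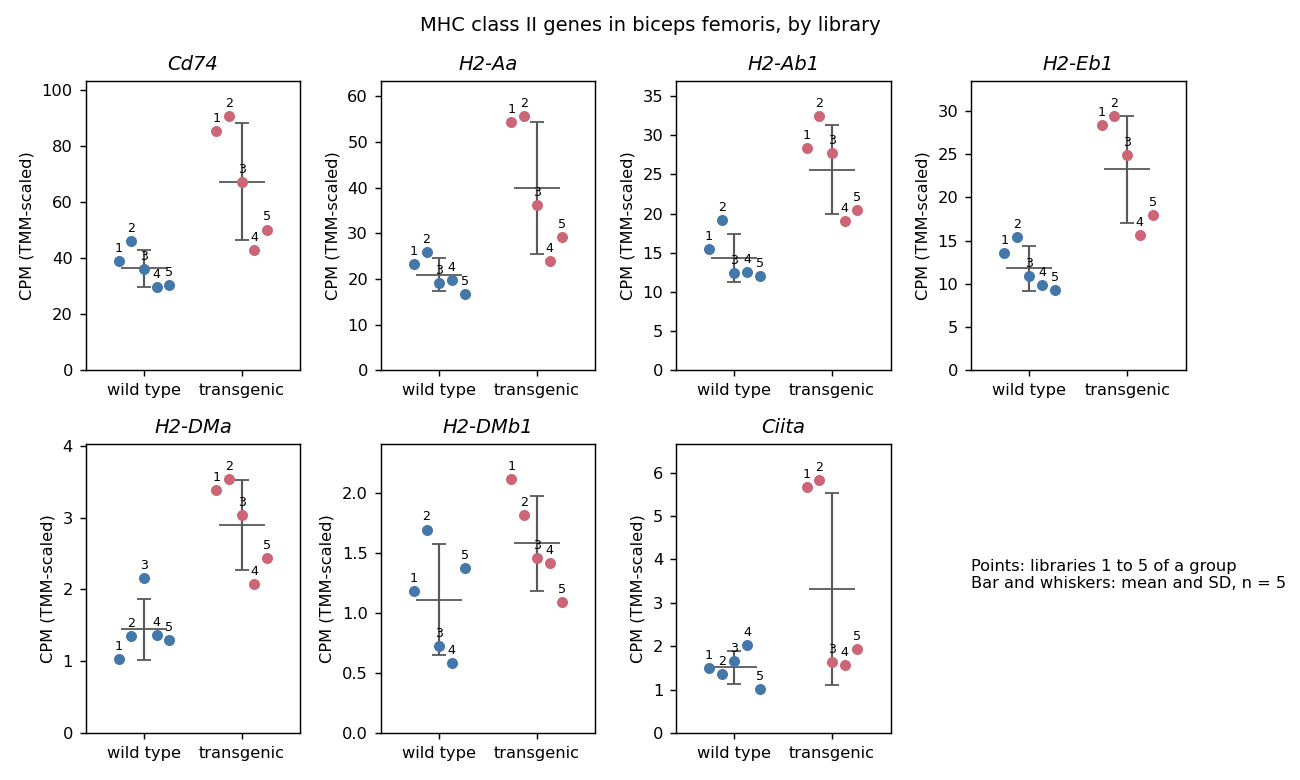
Level of each MHC class II gene in CPM (vertical axes, each from 0) in the 5 wild-type and 5 transgenic libraries; points are numbered by library, and the bar and whiskers are the mean and SD. Transgenic libraries 1 and 2 are the highest points in every panel, and for Ciita the other 3 transgenic libraries, at 1.56 to 1.93 CPM, lie among the wild-type points.

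Read together, 5 of the 7 members passed an adjusted p of 0.05 in edgeR's quasi-likelihood test, all of them higher in transgenic muscle: Cd74, H2-Aa, H2-Ab1, H2-Eb1 and H2-DMa. Of the 13338 genes tested, 4.28% passed in that direction, and since the members were listed with this contrast in view nothing is read from their count. Their median log2 fold change was 0.93, and that of all genes tested was 0.0027. Without transgenic libraries 1 and 2 no member passed, where 4.04% of genes tested did, and the median log2 fold change of the members was 0.55. In that fit 5 members had an unadjusted p under 0.05. The share of all genes tested at that unadjusted p is not given here or for the lists below, so nothing is read from such counts. Without transgenic libraries 4 and 5, 6 members passed, Ciita included, where 3.15% of genes tested did. The number of members above the highest wild-type library was 7, 7, 5, 1 and 5 in transgenic libraries 1 to 5. How many of all genes tested lay above it in each of these libraries is not given here, so nothing is read from these counts. Scaling by the raw total moved the median log2 ratio of all genes tested to 0.27, and the members' log2 ratios of mean CPM, less that median, then ran from 0.54 for H2-DMb1 to 1.17 for Ciita. On that scale 5 members, all but H2-DMb1 and Ciita, had every transgenic library above every wild-type library. The share of all genes tested that did so on that scale is not given here, so nothing is read from this count.

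**Figure D2:**
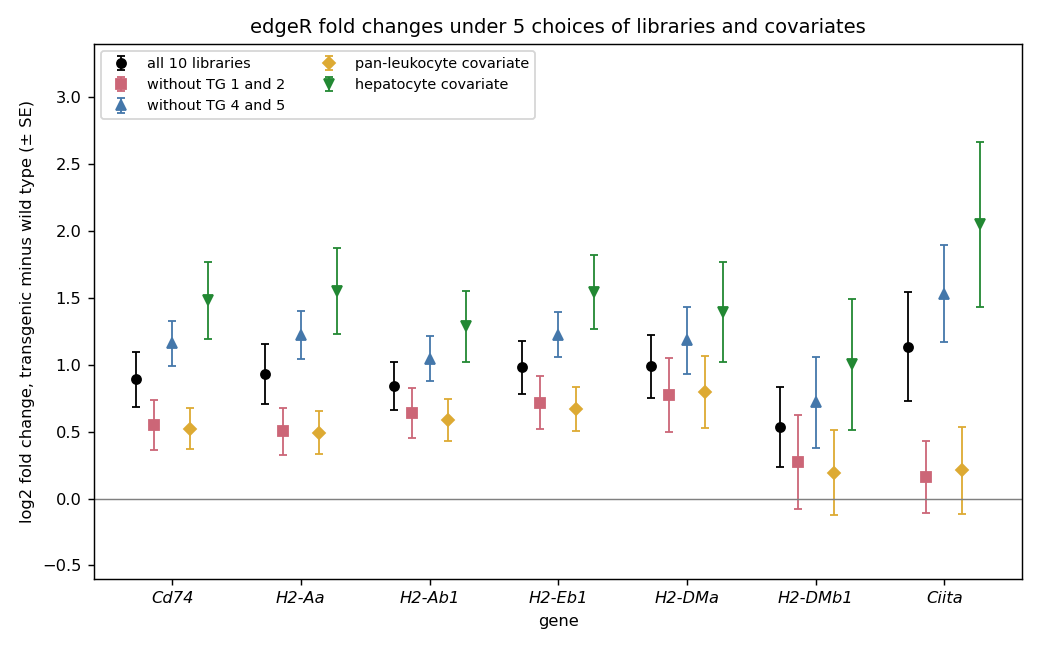
Log2 fold change, transgenic minus wild type (vertical axis, bars are SE), of the 7 MHC class II genes from edgeR with all 10 libraries, without transgenic (TG) libraries 1 and 2, without TG libraries 4 and 5, and with the mean log2 CPM of pan-leukocyte or hepatocyte markers as a covariate. Ciita spans 0.16 to 2.05 over these choices and H2-Eb1 spans 0.67 to 1.54.

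Levels can be compared between members only per length. Per kilobase of merged exons, the wild-type libraries held 21.6 ± 3.98 CPM of Cd74, 6.07 ± 1.33 CPM of H2-Eb1, 5.58 ± 1.2 CPM of H2-Ab1 and 5.51 ± 0.959 CPM of H2-Aa (SD, n = 5). The 3 chains did not differ beyond their spread, and Cd74 stood above them in every library. H2-DMb1 followed with 0.661 ± 0.273 CPM per kilobase, H2-DMa with 0.418 ± 0.124 and Ciita with 0.158 ± 0.039 (SD, n = 5). Neighbours among these last 3 also overlapped in range, except that every wild-type value of H2-DMa, from 0.297, lay above the highest of Ciita, 0.212. With the longest transcript as the length, H2-Ab1 moved from rank 3 to rank 2, at 11.8 CPM per kilobase against 7.08 for H2-Eb1. In the transgenic group the merged-exon values were 40.1 ± 12.5 CPM per kilobase for Cd74 and 12.0 ± 3.17 for H2-Eb1 (SD, n = 5).

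The level of H2-Aa relative to Cd74 ran over similar ranges in both groups, and that of H2-DMa was more spread among the wild-type libraries. H2-Eb1 relative to Cd74 was above the highest wild-type library in 3 transgenic libraries. For Ciita relative to Cd74 the SD was 0.0152 in wild type and 0.0185 in transgenic muscle. H2-Aa per Cd74, as a ratio of CPM within a library, ran from 0.530 to 0.662 in wild type and from 0.538 to 0.638 in transgenic muscle. H2-Eb1 per Cd74 ran from 0.301 to 0.347 in wild type and was 0.333, 0.324, 0.370, 0.366 and 0.358 in transgenic libraries 1 to 5. The alpha and beta chains of H2-A were less even among the transgenic libraries. H2-Ab1 per H2-Aa ran from 0.634 to 0.744 in wild type, and stood below that range in transgenic libraries 1 and 2, at 0.521 and 0.584, and above it in libraries 3 and 4, at 0.766 and 0.800. Ciita per Cd74 was 0.0665 and 0.0642 in transgenic libraries 1 and 2 and 0.0245, 0.0363 and 0.0385 in libraries 3 to 5, against 0.0294 to 0.0677 in wild type. H2-DMa per Cd74 ran from 0.0263 to 0.0599 in wild type and from 0.0390 to 0.0487 in transgenic muscle. The mean ratio in wild type was 0.0429 ± 0.0152 for Ciita and 0.0408 ± 0.0136 for H2-DMa (SD, n = 5). These ratios were not tested.

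The members also varied more among libraries of a group than the median gene. The SD of log2 CPM in wild-type muscle ran from 0.25 for H2-Aa to 0.57 for H2-DMb1, where the median over all genes tested was 0.22. That median covers genes of all levels, and genes of a similar level were not compared. H2-DMb1 rests on 9 to 39 counts per library, so counting noise adds to its SD. Cd74, the best counted member, had 0.26. In the transgenic group it ran from 0.31 for H2-DMa to 0.93 for Ciita, where the median was 0.28. Within groups, the deviations of Cd74, H2-Aa, H2-Ab1 and H2-Eb1 from their group means moved together: the Pearson correlation of each with the mean of the 4 was 0.99, 0.97, 0.97 and 0.99 over the 10 libraries, a value that includes the gene itself. For genes outside that mean it was 0.68 for Ciita, 0.60 for H2-DMb1 and 0.44 for H2-DMa. Libraries are shared by all these values, and no test was made.

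The remaining MHC-encoded class II genes were low, and none passed the filter on low counts. H2-Ob had 0.788, 0.169, 0.0555, 0.0651 and 0.289 CPM in wild-type muscle and 5.78, 7.03, 0.127, 0.709 and 0.129 CPM in transgenic muscle. H2-Oa, the alpha chain of H2-O, had 2 counts in all of wild type and 48 in the transgenic libraries, of which 45 came from libraries 1 and 2. H2-Eb2 had 2 counts in wild type and 43 in transgenic muscle, 41 of them from libraries 1 and 2. H2-DMb2 had 0.5 to 0.788 CPM in wild-type muscle, 2 and 2.93 CPM in transgenic libraries 1 and 2, and 0.506, 0.709 and 0.386 CPM in libraries 3 to 5. All 4 genes exceeded the highest wild-type library in transgenic libraries 1 and 2 and in no other transgenic library. H2-O is known from B cells and thymic epithelium. With the filter removed, 0 of the 4 passed in edgeR, 3 had an unadjusted p under 0.05, and DESeq2 called 0.

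The factors that bind the class II promoter module did not pass the test. Of 7 tested, 0 passed in edgeR, 0 had an unadjusted p under 0.05 and DESeq2 called 0, with log2 fold changes from -0.19 to 0.18 and a median of 0.02. Rfx5, which gives the RFX complex its DNA contact, stood at 2.46 to 3.78 CPM in wild-type muscle and 2.34 to 4.94 CPM in transgenic muscle. Nfyb and Nfya, subunits of NF-Y, had the smallest p of the list, with log2 fold changes of -0.19 ± 0.14 and 0.18 ± 0.14 (SE; adjusted p = 0.549 and 0.587 in edgeR).

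Interferon gamma acts on Ciita through a signalling pathway that includes Irf1. Of 6 genes of that pathway tested, 0 passed in edgeR, 1 had an unadjusted p under 0.05, and DESeq2 called 1. Ifng is not analysed here. Irf1 had a log2 fold change of 0.19 ± 0.20 (SE; adjusted p = 0.677 in edgeR).

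Many genes induced by interferon rose. Of 10 genes known to be induced by interferon gamma, 4 rose, where 4.28% of all genes tested did. The median log2 fold change of the 10 was 0.98. Irgm1 and Irgm2, GTPases of cell-autonomous defence, rose by log2 fold changes of 0.67 ± 0.13 and 0.91 ± 0.21 (SE; adjusted p = 0.00959 and 0.0242 in edgeR), and Tgtp2 and Gbp3 were the other 2. With any 1 wild-type library left out, the number that rose was 1, where 2.53% to 3.23% of all genes tested rose. Of 18 genes induced by type I interferon, 16 rose, where 4.28% of all genes tested did. The median log2 fold change of the 18 was 1.2. Irf7, a transcription factor of that response, stood at 2.53 to 4.49 CPM in wild-type muscle and 7.68 to 16.3 CPM in transgenic muscle, with its highest value in transgenic library 3 (log2 fold change 1.74 ± 0.22, SE; adjusted p = 0.000562 in edgeR). Oasl2, Ifit1 and Dhx58 had log2 fold changes of 1.42, 1.42 and 1.44. These 2 lists did not share the members' order of libraries: the summed level of the type I list was 112, 109, 116, 111 and 139 CPM in transgenic libraries 1 to 5, against 208, 219, 162, 107 and 123 CPM for the class II members. Without transgenic libraries 1 and 2, 13 of the 18 and 4 of 11 passed, where 4.04% of all genes tested rose. With hepatocyte markers as a covariate 0 genes of either list passed in edgeR, where 0.472% of all genes tested were called higher. In that fit 12 of the 18 and 1 of the 10 had an unadjusted p under 0.05. The summed hepatocyte markers did not overlap between the groups, so that fit cannot separate group from marker level well.

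MHC class I genes, which present peptides from the cytosol on nearly all cells, give the closest comparison. Of 13 tested, 10 rose in edgeR, where 4.28% of all genes tested did, and the median log2 fold change of the 13 was 0.81. Without transgenic libraries 1 and 2, 6 of the 13 rose and 0 of the 7 class II members passed, where 4.04% of all genes tested rose. The number of class I genes that rose was 5 when wild-type library 2, 4 or 5 was left out and 6 when wild-type library 3 was. In those fits 2.53% to 3.23% of all genes tested rose. Nlrc5, the transactivator of class I genes and a relative of Ciita, stood at 2.76, 1.78, 1.5, 2.02 and 2.09 CPM in wild-type muscle and at 4.73, 6.89, 3.67, 4.07 and 12.3 CPM in transgenic muscle. Its groups did not overlap, and its highest library was transgenic library 5, where Ciita was at 1.93 CPM. Tap1, which moves peptides into the endoplasmic reticulum, rose by a log2 fold change of 1.34 ± 0.24 (SE; adjusted p = 0.00704 in edgeR). H2-Q7 and H2-Q6 rose by 1.83 ± 0.31 and 1.68 ± 0.33 (SE; adjusted p = 0.00416 and 0.0105 in edgeR), though these are near-identical genes whose reads may be split. Whether the class I and class II differences themselves differ was not tested.

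Genes of the endosomal processing of class II, proteases among them, did not pass. Of 10 genes tested, 0 passed in edgeR, 1 had an unadjusted p under 0.05, and DESeq2 called 1, Ctss. Ctss, cathepsin S, makes the last cuts in Cd74 in antigen presenting cells. It stood at 11.3, 12.5, 9.88, 5.40 and 6.14 CPM in wild-type muscle and at 20.2, 21, 12.0, 24.2 and 9.39 CPM in transgenic muscle (log2 fold change 0.95 ± 0.28, SE; adjusted p = 0.0781 in edgeR). Unlike Cd74, its highest library was transgenic library 4. Of 5 costimulation genes tested, 0 passed in edgeR, 1 had an unadjusted p under 0.05 and DESeq2 called 0, and Icosl, the ligand of Icos on T cells, had a log2 fold change of 0.67 ± 0.29 (SE; adjusted p = 0.244 in edgeR).

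Markers of the cells that carry class II molecules were highest in some of the same libraries as the members. The 7 pan-leukocyte markers summed to 21 to 37.3 CPM in wild-type muscle and to 98.1, 124, 31.6, 40.5 and 24.3 CPM in transgenic libraries 1 to 5. In edgeR 0 of the 7 passed and 6 had an unadjusted p under 0.05, and DESeq2 called 3. Ptprc, which encodes CD45, had a log2 fold change of 1.41 ± 0.50 (SE; adjusted p = 0.139 in edgeR). Cd74 per summed pan-leukocyte markers was 1.14 to 1.44 in wild type. It was lower in transgenic libraries 1 and 2, at 0.870 and 0.732, higher in libraries 3 and 5, at 2.13 and 2.07, and 1.06 in library 4.

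B cell markers stood out in the same libraries as Ciita. The 11 markers summed to 19.3 to 47.4 CPM in wild-type muscle and to 111, 137, 38.9, 35.4 and 41.4 CPM in transgenic libraries 1 to 5, and 6 of them were at 0 in a wild-type library. In edgeR 3 of the 11 could be tested and 0 passed, with 3 at an unadjusted p under 0.05, and DESeq2 called 1. Ciita per summed B cell markers ran from 0.0326 to 0.0865 in wild type and from 0.0423 to 0.0509 in transgenic muscle, inside the wild-type range in every library. This was not particular to Ciita or to B cell markers. Cd74 per summed B cell markers was 0.661 to 1.73 against 0.629 to 2.18 in wild type, and H2-Eb1 also stayed inside its wild-type range. H2-Aa and H2-Ab1 per summed B cell markers reached below theirs. Ciita per summed pan-leukocyte markers was 0.0385 to 0.0796 against 0.0364 to 0.0960. T cell markers summed to 24.7 and 33.2 CPM in transgenic libraries 1 and 2, 4.43 to 6.52 CPM in the other 3 and 5.17 to 11.6 CPM in wild-type muscle. Of 2 T cell markers tested 1 rose, where 4.28% of all genes tested did. This was Zap70, a kinase of T cell receptor signalling (log2 fold change 2.44 ± 0.30, SE; adjusted p = 0.00044 in edgeR). It was above every wild-type library in all 5 transgenic libraries, as were 5.14% of the genes tested. Glycam1, made by the high endothelial venules of lymph nodes, had 640 counts in transgenic muscle, of which 638 came from libraries 1 and 2, and 10 in wild type. The 4 lymph node markers of the table summed to 32.8, 20.6, 1.71, 1.84 and 1.09 CPM in transgenic libraries 1 to 5 and to 1.95 to 5.08 CPM in wild-type muscle. The 5 Kupffer cell markers summed to 17.4, 12.3, 1.71, 4.11 and 6.88 CPM and to 0.716 to 2.44 CPM. The part of these cells in the members' values was not tested.

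No macrophage or dendritic cell marker kept by the filter on low counts passed in edgeR. The 18 macrophage markers summed to 170 to 389 CPM in wild-type muscle and to 365, 391, 309, 317 and 201 CPM in transgenic muscle, with 0 of 17 called by edgeR, 2 at an unadjusted p under 0.05, and 0 called by DESeq2. Adgre1, which encodes F4/80, had a log2 fold change of 0.24 ± 0.22 (SE; adjusted p = 0.650 in edgeR). In DESeq2 the list ran from -0.16 for Mrc1 to 1.07 for Fcgr1, with Cd14 and Cd163 also below 0. Fcgr1, Tyrobp at 0.78 and Aif1 at 0.98 had adjusted p of 0.0606, 0.0564 and 0.167 in DESeq2. Cd74 per summed macrophage markers was 0.118 to 0.175 in wild type and 0.234, 0.232, 0.218, 0.135 and 0.250 in transgenic libraries 1 to 5. The 11 dendritic cell markers summed to 17.4 to 28.0 CPM in wild-type muscle and 34.0, 34.4, 25.3, 25.6 and 23.3 CPM in transgenic muscle. In edgeR 0 of 6 tested passed, 1 had an unadjusted p under 0.05, and DESeq2 called 2, Itgax and Ccr7. The log2 fold changes of the 6 ran from -0.22 for Mgl2 to 0.94 for Siglech, with a median of 0.18, and Xcr1 had -0.07. Itgax, which encodes CD11c, failed the filter on low counts. With the filter removed, it had a log2 fold change of 1.79 ± 0.46 (SE; adjusted p = 0.0441 in edgeR), where 4.02% of genes tested were called higher. It had 0.0788, 0.593, 0.278, 0.520 and 0.144 CPM in wild-type muscle and 0.834, 1.58, 1.2, 1.47 and 0.515 CPM in transgenic muscle, so 4 transgenic libraries exceeded every wild-type library, and these included libraries 3 and 4. Of the other 4 dendritic cell markers that failed the filter, Batf3 and Cd209a had log2 fold changes of 0.11 and -0.08 in DESeq2. Ccr7 and Flt3 had 4.36 ± 1.36 and 1.25 ± 0.61 (SE; adjusted p = 0.0230 and 0.245 in DESeq2). Cd74 per summed dendritic cell markers was 1.37 to 1.71 in wild type and 2.51, 2.64, 2.66, 1.68 and 2.15 in transgenic muscle.

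**Figure D3:**
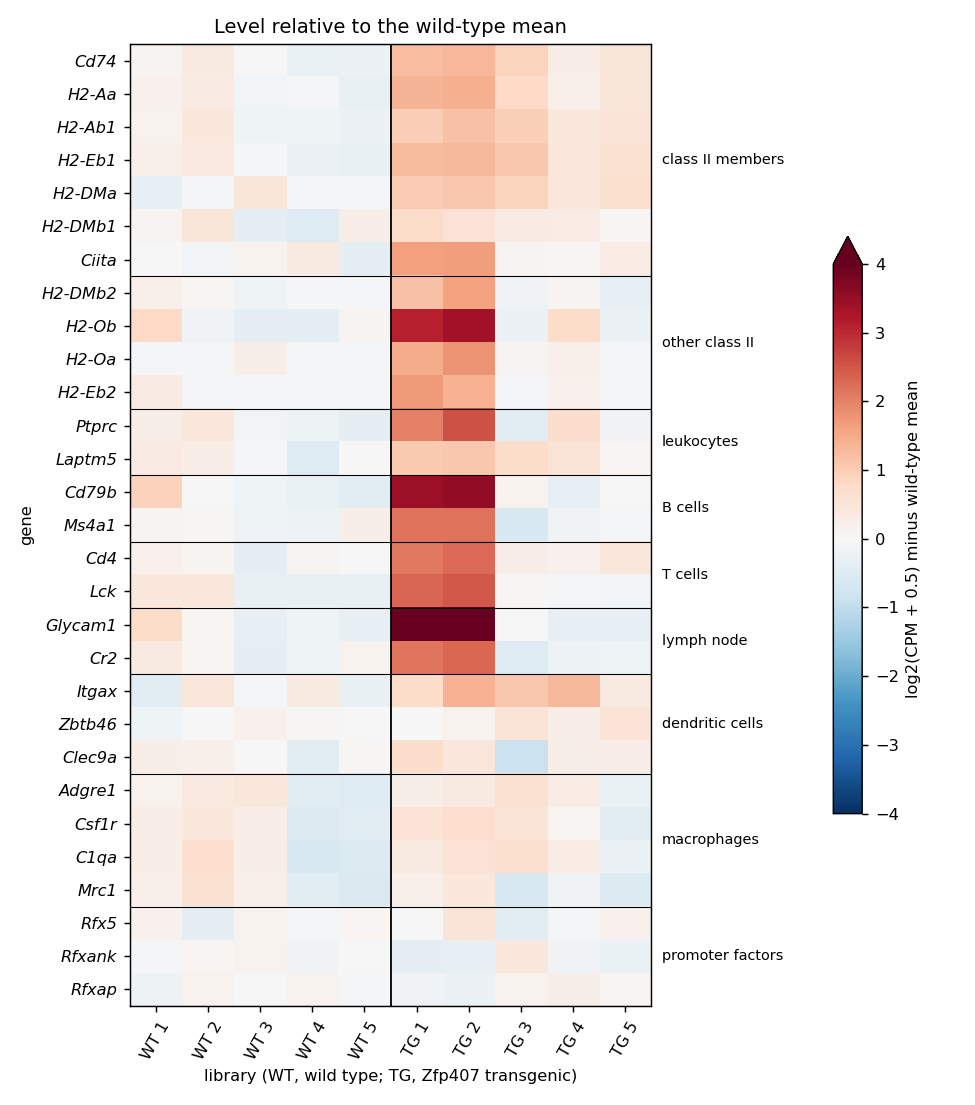
Level of class II genes, cell type markers and promoter factors (rows) in each library (columns), as log2(CPM + 0.5) minus the wild-type mean; colours stop at 4, which Glycam1 exceeds in transgenic (TG) libraries 1 and 2. The other class II genes and the B cell, T cell and lymph node markers are strongest in TG 1 and 2, while Cd74, H2-Aa, H2-Ab1, H2-Eb1 and H2-DMa are also red in TG 3.

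When the mean log2 CPM of the pan-leukocyte markers was added to the fit, the log2 fold change was 0.52 ± 0.16 for Cd74, 0.59 ± 0.16 for H2-Ab1, 0.67 ± 0.17 for H2-Eb1 and 0.21 ± 0.33 for Ciita (SE). Then 2 members passed in edgeR, H2-Ab1 and H2-Eb1, where 4.7% of genes tested were called higher. With the B cell markers in its place, a choice made after seeing the data, 1 member passed, H2-Eb1, at 0.72 ± 0.19 (SE), where 4.69% of genes tested were called higher. Each covariate used only the listed markers that passed the filter on low counts, which most B cell markers did not. With the hepatocyte markers the members' log2 fold changes and their SE were larger, from 1 ± 0.49 for H2-DMb1 to 2.05 ± 0.62 for Ciita (SE). Without a covariate the SE were 0.30 and 0.41. Then 2 members passed, Cd74 and H2-Eb1, where 0.472% of genes tested were called higher. The summed hepatocyte markers did not overlap between the groups, at 169 to 286 CPM in wild-type and 537 to 6275 CPM in transgenic muscle. That fit therefore cannot separate group from marker level well. H2-Eb1 also passed with each single library left out, while the number of members that passed fell to 2 when the library left out was wild-type 1, 3, 4 or 5 or transgenic 1 or 2; with 1 library left out, 2.53% to 5.64% of genes tested were called higher.

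**Figure D4:**
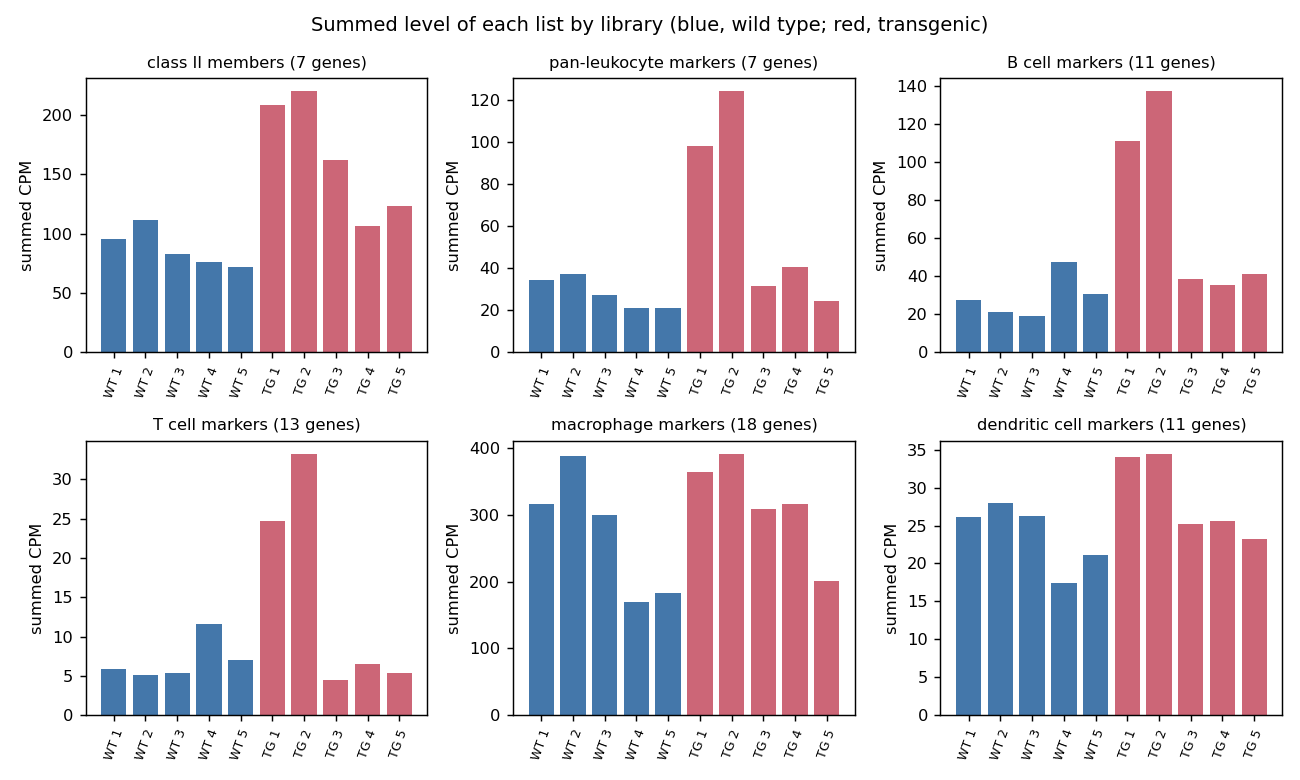
Summed CPM (vertical axes, from 0) of the class II members and of 5 marker lists in each library, wild type in blue and transgenic in red. The class II members sum to 72.1 to 111 CPM in wild-type muscle and 107 to 219 CPM in transgenic muscle, and transgenic (TG) library 3, at 162 CPM, is next after TG 1 and 2 for the members but not for the marker lists.

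Among 12546 genes tested with a mean of at least 1 CPM, those whose deviations from the group means were most like the mean deviation of Cd74, H2-Aa, H2-Ab1 and H2-Eb1 over the 10 libraries were Zfp868, Gmfg, Elmo1, Mmp3, Rassf5, Pik3cg, Cnr2, Wdfy4, Ankmy2 and Rpl17, with Pearson correlations from 0.95 to 0.91. Of these, Wdfy4, needed for cross-presentation by dendritic cells, was the 1 gene called, at 3.38 to 4.57 CPM in wild-type muscle and 11.1, 12.4, 7.78, 4.58 and 6.37 CPM in transgenic muscle (log2 fold change 1.12 ± 0.24, SE; adjusted p = 0.0169 in edgeR). Cnr2, the cannabinoid receptor of immune cells, had a log2 fold change of 1.33 ± 0.36 (SE; adjusted p = 0.0525 in edgeR). Zfp868, first in the list, had one of -0.20 ± 0.17 (SE; adjusted p = 0.590 in edgeR). The list is unstable: 4 of the 10 genes were shared with a Spearman ranking, and 1 to 8 when a library was left out, with 1 without transgenic library 4.

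In the genome the class II genes other than Cd74 and Ciita lie in the MHC on chromosome 17 (GRCm38, GENCODE annotation). From the 5′ side of the plus strand these are H2-DMa at 34119541 to 34139101, H2-DMb1 at 34153072 to 34160230, H2-Ab1 at 34257689 to 34269419, H2-Aa at 34282744 to 34287823 and H2-Eb1 at 34305867 to 34316674. H2-Aa is on the minus strand and the other 4 are on the plus strand. Ciita is on chromosome 16, at 10480059 to 10528418, and Cd74 on chromosome 18, at 60803848 to 60812652, both on the plus strand. Members on 3 chromosomes thus include Cd74, outside the MHC, whose transgenic libraries had the same order as those of the classical chains.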

How the data were processed

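The authors deposited raw read counts per gene for 5 wild-type and 5 transgenic libraries of biceps femoris. Per the submitters' processing notes DESeq2 1.10, HTSeq 0.6.1, TopHat2 2.1, SAMtools 1.2 and Bowtie2 2.2.6 were used on GRCm38. How HTSeq was set, and with which annotation, is not given in the sources used here. Beside the counts stand the authors' mean signal, log2 fold change with its error, Wald score and p-values. The columns name a group and a number and cannot be tied to a mouse; the labels describe 10 different mice.

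The fit used edgeR 4.0.16 in R 4.3.3 (filterByExpr, TMM, then glmQLFit and glmQLFTest) for transgenic against wild type with no other term, and p-values were adjusted by Benjamini-Hochberg over 13338 genes, with a threshold of 0.05. A standard error is the fold change over the root of its F statistic. Depth was 13530367 to 19047834 counts, and every pair of libraries within a group, 20 in all, differed beyond sampling noise (chi-square over degrees of freedom at least 15.9). The test was checked on simulated data. The alternatives were DESeq2 1.42.0, other size factors, filters and scalings, libraries left out and marker covariates. Log2 CPM used a prior count of 2. The members and the 21 gene lists were chosen with earlier results of these data known. Named are all members, up to 4 called genes of a list or up to 2 with the smallest p where none was called, defining cell type markers and the 10 genes most like the members; genes not needed for a result were left out, some are not reported here, and others, such as H2-Ob and Glycam1, were named after their values were seen.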

Additional observations from a re-analysis of the deposited data

How the results depend on the processing

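Over 21 alternatives the 7 members kept a positive log2 fold change. The number of members called, 5, was also 5 with DESeq2 size factors, with DESeq2, without a filter, with a mean of at least 1 CPM, without Lars2, Gm15564 and Gm15662 and in the authors' deposited table. It was 0 without transgenic libraries 1 and 2, 2 with pan-leukocyte or hepatocyte markers as covariate, 1 with B cell markers as covariate, and 2 to 5 with 1 library left out. Without transgenic libraries 4 and 5 all members but H2-DMb1 passed. With all 10 libraries and no covariate, where each of these choices called 5 members, 3.89% to 5.66% of genes tested were called higher. That share was 4.04% without transgenic libraries 1 and 2 and 3.15% without 4 and 5. It was 4.7%, 0.472% and 4.69% with pan-leukocyte, hepatocyte and B cell markers, and 2.53% to 5.64% with 1 library left out. The number of genes called was 711, and 1230 with DESeq2, 1158 in the authors' deposited table, 68 with hepatocyte markers and 450 to 1116 with 1 library left out.

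With hepatocyte markers, which did not overlap between the groups when summed, each member had a larger SE. The log2 fold change was then 1.48 for Cd74, 1.55 for H2-Aa, 1.29 for H2-Ab1, 1.54 for H2-Eb1, 1.39 for H2-DMa and 2.05 for Ciita. For H2-Aa it was 0.50 without transgenic libraries 1 and 2, 0.49 with pan-leukocyte and 0.50 with B cell markers, and for Ciita 0.16, 0.21 and 0.14. With 1 library left out it ran from 0.76 to 1.02 for Cd74, 0.78 to 1.07 for H2-Aa, 0.74 to 0.93 for H2-Ab1, 0.88 to 1.1 for H2-Eb1, 0.85 to 1.16 for H2-DMa, 0.34 to 0.69 for H2-DMb1 and 0.83 to 1.32 for Ciita.

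Counts of list genes called higher moved as follows. With DESeq2, and in the authors' deposited table, the pathway from interferon gamma to Ciita had 1, endosomal processing 1, interferon gamma induced genes 7, pan-leukocyte markers 3, B cell markers 1, T cell markers 3 and Kupffer cell markers 2, and dendritic cell markers 2 and 1. With hepatocyte markers interferon gamma induced, type I interferon induced, class I and hepatocyte genes had 0, and endosomal processing, pan-leukocyte and macrophage lists 1 each. With pan-leukocyte markers the pathway to Ciita had 1, interferon gamma induced genes 7 and dendritic cell markers 1, and 1 neutrophil or mast cell marker and 1 lymph node marker were called lower. With B cell markers interferon gamma induced genes had 7. Without transgenic libraries 4 and 5 class I had 6, pan-leukocyte 5, T cell 2, and macrophage, dendritic cell, B cell and Kupffer cell markers 1 each. Class I had 6 without transgenic libraries 1 and 2. Without a filter dendritic cell and Kupffer cell markers had 1 each and T cell markers 2, and T cell markers had 0 with a mean of at least 1 CPM. With 1 library left out the range was 5 to 11 for class I, 1 to 6 for interferon gamma induced genes, 11 to 17 for type I, 11 to 14 for hepatocyte, 1 to 2 for T cell, 0 to 3 for pan-leukocyte, 0 to 2 for macrophage, and 0 to 1 for B cell, dendritic cell, Kupffer cell, endosomal processing, pathway to Ciita and other class II genes. The cause of these shifts was not tested.

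No paired analysis was possible because the columns carry a group but not a single mouse, and the labels give no replicate numbers that the groups share. Depth limits H2-DMb1, with 9 to 39 counts per library, and the H2-O chains.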
